A study of Homo sapiens with 12 samples.

Results

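The genes described here are 10 members of the inflammatory programme that the transcription factor NF-kB is known to drive: the neutrophil-attracting chemokines CXCL8 (listed in the table under its older name IL8), CXCL1, CXCL2 and CXCL3, the monocyte-attracting chemokine CCL2, the cytokines IL6, LIF and IL1B, and the feedback inhibitors NFKBIA and TNFAIP3. They were chosen by name, and all 10 were found among the 57865 features of the deposited table. The cells were ES-2, an ovarian cancer cell line, with a pool of siRNAs against IGF2BP1 (siI1), a pool against IGF2BP2 (siI2), a pool against IGF2BP3 (siI3) or control siRNAs (siC). Each of the 4 groups held 3 libraries of total RNA depleted of ribosomal RNA, and the comparison asked which transcripts depend on each of these RNA-binding proteins. All groups share the same cells and medium, and the labels name no inflammatory stimulus. Each knockdown rests on a single pool of siRNAs in a single line, and no time from transfection to harvest is stated in the labels. Nothing in them says that replicates were cultured separately, so the p-values reflect only how these libraries scatter, which may be technical.

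NF-kB dimers are held inactive in the cytoplasm by inhibitors such as NFKBIA (IkB-alpha). Signals such as IL-1 or TNF lead to the destruction of that inhibitor, and NF-kB then enters the nucleus and switches on chemokine and cytokine genes together with its own inhibitors, NFKBIA and the ubiquitin-editing enzyme TNFAIP3 (A20). Many of the resulting mRNAs are short-lived because AU-rich elements in their 3' UTRs recruit decay factors. CXCL8 and the CXCL1 to CXCL3 group signal through the receptors CXCR1 and CXCR2, and many carcinoma cells are known to secrete them.

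The 4 CXC chemokine genes lie on chromosome 4. Their proximal promoters are printed because the levels of CXCL8 and of CXCL1 to CXCL3 moved differently between the groups. The sequences are RefSeq's, on the GRCh38.p14 build, 250 bases before to 50 bases after the gene's start, and 8 of the 10 genes had an entry (LIF and CCL2 did not). Capitals mark matches to GGNNTTTCC, a form of the NF-kB motif, and to TGANTCA, a form of the AP-1 motif, searched on both strands; no matches overlapped. CXCL8 (chr4:73740319-73740618, plus strand), CXCL1 (chr4:73869143-73869442, plus strand), CXCL2 (chr4:74099146-74099445, minus strand) and CXCL3 (chr4:74038640-74038939, minus strand) read as follows.
CXCL8: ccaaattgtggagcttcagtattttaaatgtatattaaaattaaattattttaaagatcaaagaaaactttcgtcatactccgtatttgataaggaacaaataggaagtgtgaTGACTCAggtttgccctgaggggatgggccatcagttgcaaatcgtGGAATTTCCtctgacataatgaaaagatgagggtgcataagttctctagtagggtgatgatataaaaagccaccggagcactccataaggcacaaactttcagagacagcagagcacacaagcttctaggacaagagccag
CXCL1: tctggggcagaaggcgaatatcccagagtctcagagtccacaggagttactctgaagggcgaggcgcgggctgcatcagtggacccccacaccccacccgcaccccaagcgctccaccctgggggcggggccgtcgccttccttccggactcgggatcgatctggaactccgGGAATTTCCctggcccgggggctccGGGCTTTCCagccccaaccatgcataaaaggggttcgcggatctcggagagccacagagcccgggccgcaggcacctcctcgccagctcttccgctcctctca
CXCL2: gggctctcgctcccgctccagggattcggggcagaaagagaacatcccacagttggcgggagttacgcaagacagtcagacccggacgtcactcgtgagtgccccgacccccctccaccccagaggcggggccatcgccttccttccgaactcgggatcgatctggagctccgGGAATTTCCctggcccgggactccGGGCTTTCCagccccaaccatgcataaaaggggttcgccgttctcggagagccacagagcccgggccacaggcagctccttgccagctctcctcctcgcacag
CXCL3: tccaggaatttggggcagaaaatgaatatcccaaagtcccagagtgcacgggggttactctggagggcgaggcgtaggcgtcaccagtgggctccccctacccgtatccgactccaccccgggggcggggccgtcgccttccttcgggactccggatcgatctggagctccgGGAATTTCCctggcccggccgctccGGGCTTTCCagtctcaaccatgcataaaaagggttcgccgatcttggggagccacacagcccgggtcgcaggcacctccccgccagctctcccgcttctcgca

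The CXCL8 window held 1 NF-kB match, 91 to 83 bases before the start, and 1 AP-1 match, 137 to 131 bases before it. The CXCL1 and CXCL3 windows each held NF-kB matches at 78 to 70 and 53 to 45 bases before the start, the CXCL2 window at 77 to 69 and 53 to 45 bases, and none of the 3 held the AP-1 letters. The first of the 2 matches in each has the same letters as the match in CXCL8, GGAATTTCC. Of the other windows, NFKBIA and TNFAIP3 held 2 NF-kB matches each, IL6 held 1 and IL1B held 0. Among 35116 RefSeq promoters of the same length, 6.26% held the NF-kB letters, 7.71% the AP-1 letters and 0.521% both. A match describes the letters of the window and says nothing about binding in these cells.

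An AU-rich motif in the 3' UTRs, which the choice of genes did not use, was also counted. The AU-rich pentamer ATTTA occurred 9 times in the CXCL8 3' UTR, 5 times in CXCL1, 10 times in CXCL2 and 7 times in CXCL3, and 1 to 7 times in the other members (the longest annotated 3' UTR of each gene in GENCODE release 29, GRCh38, overlapping matches counted). Of 19132 genes with a 3' UTR, 67.6% held at least 1 and 28.6% at least 5. The members' 3' UTRs ranged from 429 bases in IL6 to 3204 in LIF, so the counts are not alike in density. Per kilobase there were 7.19 in CXCL8, 7.08 in CXCL1, 13.9 in CXCL2 and 10.4 in CXCL3. The other members had 14.0 in IL6, 9.84 in IL1B, 5.98 in NFKBIA, 2.18 in LIF, 2.11 in CCL2 and 1.27 in TNFAIP3. This longer form, TATTTAT, was held by 31.1% of genes, and CCL2 held 0. A short stretch around the first TATTTAT, in capitals, is given for the 4 CXC chemokines.
CXCL8: tgtaaagtatTATTTATttgaatctac
CXCL1: agaagtcttcTATTTATttatttattc
CXCL2: agaagtcttcTATTTATttatttattt
CXCL3: gggttctactTATTTATgtatttattt

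Levels are given in FPM, the authors' unit of fragments scaled to library size, and the libraries held 3299360 to 11304060 reads, so that 3 reads stood for 0.32 to 0.73 FPM. Each siRNA pool lowered its target, to 25.2% of siC for IGF2BP1 in siI1, 16.8% for IGF2BP2 in siI2 and 19.2% for IGF2BP3 in siI3, and the targeted gene had its 3 lowest values in its own libraries each time. IGF2BP3 also averaged 15.2 FPM in siI1 and 14.9 in siI2, beside 23.5 in siC. IGF2BP1 averaged 55.6 FPM in siI2 and 39.0 in siI3, beside 43.9 in siC. IGF2BP2 averaged 89.1 FPM in siI1 and 103 in siI3, beside 80.0 in siC. None of these differences in genes that were not the target passed with limma. Of 9 carcinoma markers, EPCAM and WT1 averaged at most 1.11 FPM per group, PAX8 and MUC16 at most 4.27 FPM and the chromatin gene ARID1A 35.3 to 41.5 FPM. The keratin KRT7 averaged 488 to 874 FPM, while KRT8 and KRT18 were higher in siI1 (147 ± 15.4 and 311 ± 53.3 FPM in siI1, 44.0 ± 8.17 and 158 ± 49.9 FPM in siC, SD, n = 3; log2 fold changes 1.73 and 1.0, limma adjusted p = 0.000173 and 0.015). The mesenchymal filament gene VIM fell in siI3 (338 ± 153 FPM in siI3 and 914 ± 75.6 FPM in siC, SD, n = 3; -1.52, limma adjusted p = 0.0264). VIM also had a lower mean than in siC in siI2 (353 ± 183 FPM, -1.53, limma adjusted p = 0.0563). In siI1 its level was 484 ± 209 FPM (-0.99, limma adjusted p = 0.113). The KRT8 call held in all 12 fits that left out 1 library, and the KRT18 and VIM calls in 8 of 12. The part of these marker differences in the results was not tested. The summed level of 8 leukocyte markers was 3.25 to 4.97 FPM in siI1, 1.92 to 3.64 in siI2, 1.02 to 7.09 in siI3 and 1.62 to 3.93 in siC, with the pan-leukocyte gene PTPRC at 0 to 0.886 FPM. Of 5 endothelial markers, VWF, KDR, TEK and CLDN5 stayed at or below 3.15 FPM, and the cadherin CDH5 was higher in every knockdown (140 ± 8.05, 114 ± 10.2 and 101 ± 7.56 FPM in siI1, siI2 and siI3, 60.5 ± 9.77 in siC; SD, n = 3). Its limma adjusted p-values were 0.000638, 0.0154 and 0.0196 in siI1, siI2 and siI3. These calls held in 12, 9 and 8 of the 12 fits that left out 1 library. Those of siI2 and siI3 were lost without siC replicate 1 or 3, among others. Replicates 1 and 3 of siC stood apart from the other 10 libraries in how levels follow the GC content of transcripts: the slope, in log2 per 10 points of GC relative to the mean of all libraries, was -0.09 to 0.21 in the knockdown libraries and 0.03 in siC replicate 2, but -0.46 and -0.43 in siC replicates 1 and 3. In siI3, replicate 3 also stood apart: the chi-square of reads over genes, divided by its degrees of freedom, was 72.0 and 85.8 against replicates 1 and 2 of siI3, which differed by 8.03 from each other, and it was 25.8 to 79.2 between siC libraries. The longest transcripts of the members range in GC content from 33.4% for CXCL8 to 56.9% for LIF. A fit corrected for GC content and length is therefore given beside some of the results. In bulk RNA, fewer cells expressing a gene and less RNA per cell cannot be told apart.

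In siC cells the members spanned a wide range of levels. Per kilobase of exon, CXCL8 was highest at 59.2 ± 9.82 FPM per kb (SD, n = 3), followed by CXCL1 at 26.2 ± 2.32, LIF at 11.3 ± 2.34 and NFKBIA at 11.3 ± 2.55. CXCL2 (2.59 ± 0.44) and CXCL3 (1.76 ± 0.34) came next, then TNFAIP3 (0.863 ± 0.135), IL1B (0.674 ± 0.215), IL6 (0.13 ± 0.13) and CCL2 (0.0227 ± 0.0393 FPM per kb). The neighbours LIF and NFKBIA, CXCL2 and CXCL3, TNFAIP3 and IL1B, and IL6 and CCL2 overlapped between libraries. In the knockdowns CXCL8 no longer led this order: CXCL1 was highest in siI1 at 23.9 ± 1.92, in siI2 at 47.8 ± 6.12 and in siI3 at 63 ± 16.8 FPM per kb, and CXCL8 stood at 5.78 ± 1.41, 16 ± 8.46 and 26.9 ± 28.6 FPM per kb in the same 3 groups. In siI3 the libraries' values for CXCL1 and CXCL8 overlapped.

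**Figure D1:**
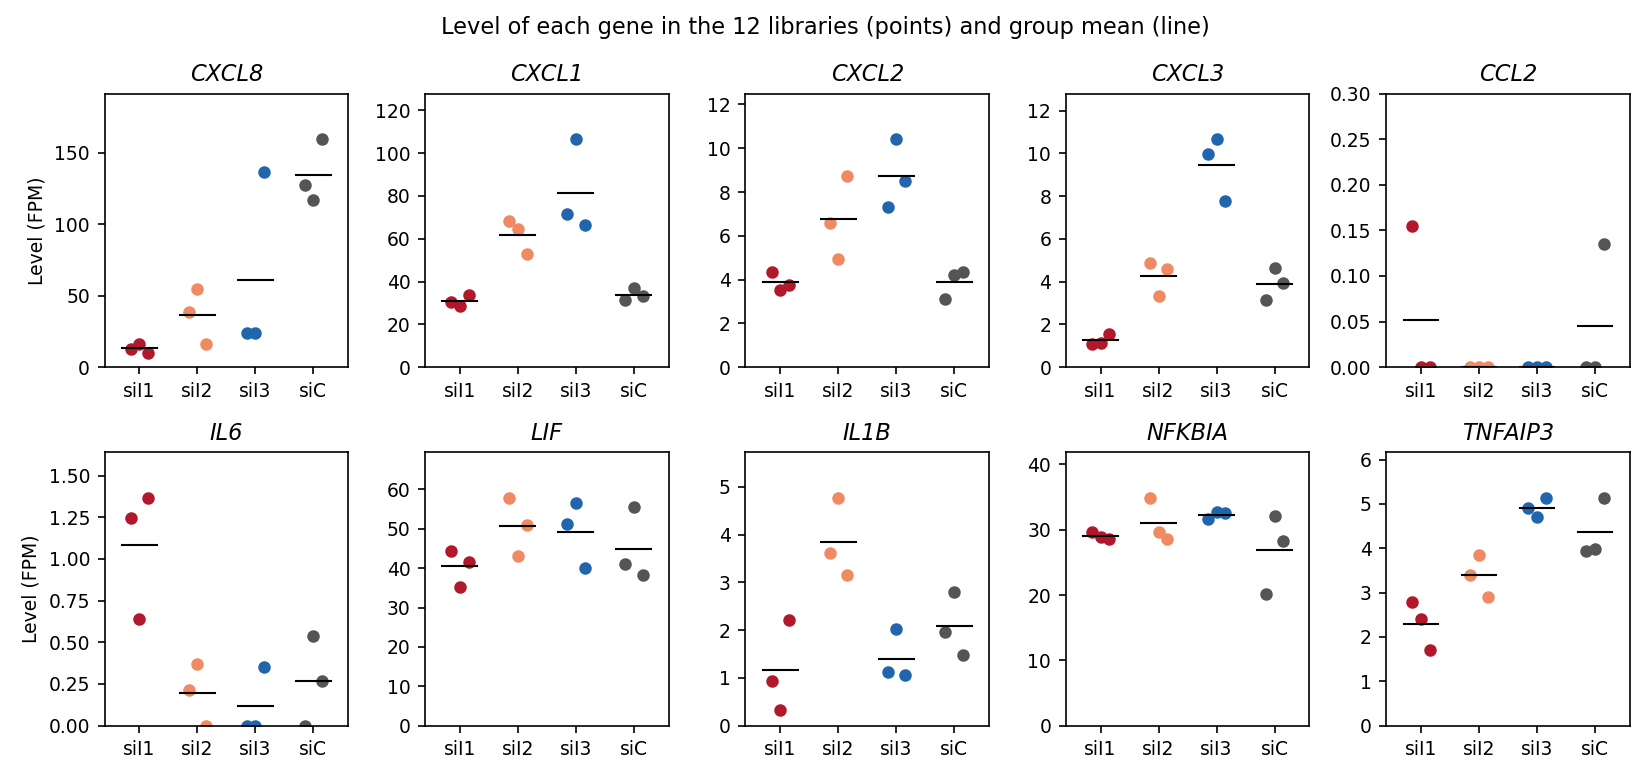
Level in FPM (linear axis from 0, a scale of its own in each panel) of the 10 genes in the 12 libraries, with siI1, siI2, siI3 and siC from left to right; points are libraries in replicate order and lines are group means. CXCL8 lies at 10.1 to 16.5 FPM in siI1 and 117 to 160 FPM in siC, CXCL1 is high in siI2 and siI3, and CCL2 and IL6 are close to 0.

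CXCL8, the neutrophil chemokine interleukin-8, was the member with the largest difference from siC. Its level was 12.9, 16.5 and 10.1 FPM in siI1, 38.5, 54.6 and 16.2 FPM in siI2, 23.6, 23.6 and 136 FPM in siI3 and 127, 117 and 160 FPM in siC, in the order of replicates 1 to 3. All 3 siI1 and all 3 siI2 libraries were below the lowest siC library, whereas siI3 replicate 3 lay within the siC range and the other siI3 libraries far below it. As given above, siI3 replicate 3 differed from the other siI3 libraries over all genes, and the part of that difference in the CXCL8 split was not tested. Not all members split in this way: in siI3 NFKBIA had 31.6, 32.6 and 32.6 FPM and TNFAIP3 4.91, 4.70 and 5.14 FPM. In siI1 CXCL8 fell to 9.77% of its siC mean (log2 fold change -3.27, SE 0.52, limma adjusted p = 0.00135). This held in all 12 fits that left out 1 library, and the fit corrected for GC content and length gave -2.66 (adjusted p = 0.00612). With siC replicate 2 as the only control, an alternative chosen after seeing the data, the log2 fold change was -3.08 but did not pass (adjusted p = 0.16); in that fit no member passed against siC and only 40, 1 and 15 of all genes did in siI1, siI2 and siI3.

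In siI2 CXCL8 was at 27.1% of siC, a log2 fold change of -2.0 (SE 0.52) that narrowly missed the threshold of 0.05 (limma adjusted p = 0.0608; 0.179 after the GC correction). In siI3 it was at 45.5% of siC (-1.62, SE 0.52, limma adjusted p = 0.0551), and that mean combines values far apart. The fit corrected for GC content and length gave -1.27 (adjusted p = 0.139) and edgeR -1.03 (adjusted p = 0.206) for siI3. Without siI3 replicate 3 the siI3 difference was -2.45 and passed (limma adjusted p = 0.00129), and without siI2 replicates 2 or 3 it passed with an adjusted p of at most 0.0371. The siI2 difference passed without siC replicate 2, siI2 replicate 2 or siI3 replicate 3, with log2 fold changes of -2.36 to -2.0 and adjusted p-values of 0.00489 to 0.0376. In the authors' deposited table, CXCL8 has log2 fold changes of -3.35 in siI1, -1.88 in siI2 and -1.14 in siI3, with an FDR of 0.00442, 0.638 and 0.912.

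CXCL1 (GRO-alpha), which shares its receptor CXCR2 with CXCL8, was higher in siI2 and siI3 and close to siC in siI1. It stood at 30.4, 28.8 and 33.7 FPM in siI1, 68.4, 64.5 and 53.1 FPM in siI2, 71.6, 107 and 66.6 FPM in siI3 and 31.3, 37.2 and 33.3 FPM in siC. Every siI2 and siI3 library was above every siC library, and the siI1 and siC libraries overlapped. CXCL1 rose in siI3 to 240% of siC (1.21 on the log2 scale, SE 0.20, limma adjusted p = 0.00417; 1.64 and 0.000436 after the GC correction), and this held in all 12 fits that left out 1 library. In siI2 it rose to 183% (0.85, SE 0.20, limma adjusted p = 0.0482; 1.19 and 0.00734 after the GC correction). The authors' deposited log2 fold changes for CXCL1 are 0.87 in siI2 (FDR 0.224) and 1.27 in siI3 (FDR 0.00119). The siI2 call was lost without siC replicate 1 or 3, siI1 replicate 1, 2 or 3, siI2 replicate 1 or 3, or siI3 replicate 1, with log2 fold changes of 0.77 to 0.95 and adjusted p-values of 0.0596 to 0.223. In siI1 the difference was -0.13 (95% interval -0.55 to 0.30).

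CXCL2 and CXCL3 (GRO-beta and GRO-gamma), the close paralogs of CXCL1, were both higher in siI3. CXCL2 measured 4.35, 3.52 and 3.76 FPM in siI1, 6.60, 4.96 and 8.73 FPM in siI2, 7.30, 10.4 and 8.51 FPM in siI3 and 3.13, 4.21 and 4.33 FPM in siC, from 22 to 82 reads per library. The siI2 and siI3 libraries lay above all siC libraries, and siI1 overlapped siC. CXCL2 rose in siI3 (0.99, SE 0.27, limma adjusted p = 0.0316; 1.39 and 0.0158 after the GC correction). In siI2 the difference of 0.65 (SE 0.27) did not pass (limma adjusted p = 0.171), and in siI1 it was 0.00 (95% interval -0.57 to 0.57). The siI3 call was lost without siC replicate 1 or 3 or siI3 replicate 1 or 2 (log2 fold changes of 0.87 to 1.10, adjusted p-values of 0.0759 to 0.151), and the FDR in the authors' deposited table is 0.118.

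CXCL3 was the member that moved in opposite directions in siI1 and siI3. It had 1.09, 1.12 and 1.54 FPM in siI1, 4.90, 3.31 and 4.61 FPM in siI2, 9.96, 10.7 and 7.80 FPM in siI3 and 3.13, 4.64 and 3.93 FPM in siC, which is 7 to 9 reads per siI1 library and 44 to 84 reads per siI3 library. All siI1 libraries were below and all siI3 libraries above the siC range, while siI2 overlapped it. CXCL3 fell in siI1 to 32% of siC (-1.12 on the log2 scale, SE 0.27, limma adjusted p = 0.021) and rose in siI3 to 243% (1.10, SE 0.27, limma adjusted p = 0.0235). On the log2(FPM + 1) scale a gene this low has its change understated, and edgeR on the recovered reads gave -1.61 in siI1 and 1.33 in siI3 (adjusted p = 0.0118 and 0.0199). The siI1 call was lost without siC replicate 1 or 3 or any single siI1 replicate (-1.23 to -1.07, adjusted p-values of 0.0512 to 0.0974). The siI3 call was lost without siC replicate 1 or 3 or siI3 replicate 1 or 2 (0.98 to 1.11, adjusted p-values of 0.0863 to 0.125).

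The values of CXCL1, CXCL2 and CXCL3 are uncertain to the extent that reads are shared. Their coding sequences are 90.7% to 94.4% identical, and 4.81% of 50-base windows in CXCL1, 12.5% in CXCL2 and 6.01% in CXCL3 occur in another of the 4 chemokine mRNAs. CXCL8 shares none of its windows and is 47.5% to 50.5% identical to the other 3 in coding sequence. The labels do not state how reads with several matches were counted.

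**Figure D2:**
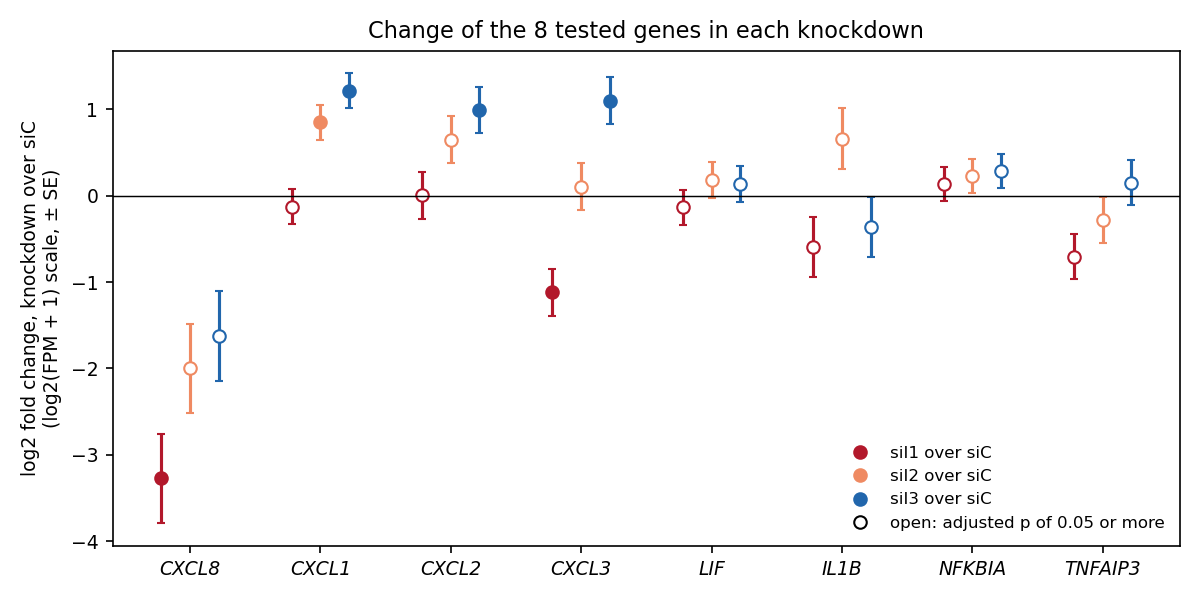
Log2 fold change over siC, on the log2(FPM + 1) scale, with its standard error, for the 8 genes that passed the filter on low values; filled points have a limma adjusted p below 0.05 and open points do not. CXCL8 is below 0 in all 3 knockdowns, while CXCL1 runs from -0.13 in siI1 to 1.21 in siI3 and CXCL3 from -1.12 to 1.10.

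Counted together, 2 of the 8 members that could be tested fell in siI1 and 0 rose, where 4.42% of all 13782 tested genes were lower and 3.77% higher. In siI2, 1 of 8 rose and 0 fell, where 0.573% of all genes were higher and 0.936% lower. In siI3, 3 of 8 rose and 0 fell, where 2.3% of all genes were higher and 8.29% lower. The 3 were CXCL1, CXCL2 and CXCL3, close paralogs with the shared windows given above. They may therefore not count as separate members, here or in the comparisons below. The shares over all genes rest on 1128, 208 and 1460 genes called in siI1, siI2 and siI3, and single libraries moved those counts by more than 1.5 times. In siI1 the count was 268, 2602 and 290 without siC replicates 1, 2 and 3, and 299 and 332 without siI1 replicates 1 and 3. In siI2 it was 36, 1572 and 28 without siC replicates 1, 2 and 3, 37, 1414 and 63 without siI2 replicates 1, 2 and 3, 106 and 105 without siI1 replicates 1 and 3, and 129, 129 and 435 without siI3 replicates 1, 2 and 3. In siI3 it was 89, 2824 and 111 without siC replicates 1, 2 and 3, and 215, 156 and 2742 without siI3 replicates 1, 2 and 3. The background against which the members are read is therefore itself uncertain. The median log2 fold change of the 8 was -0.36 in siI1, 0.20 in siI2 and 0.22 in siI3, beside medians of -0.05, -0.09 and -0.05 over all tested genes. The 3 comparisons share the siC libraries. The members that passed the filter on low values were kept only if their reads sufficed in at least some libraries, and the median does not cover CCL2 and IL6.

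IL1B, the precursor of interleukin-1 beta, was the tested member with the fewest reads. It stood at 0.932, 0.320 and 2.22 FPM in siI1, 3.62, 4.78 and 3.15 FPM in siI2, 1.12, 2.03 and 1.06 FPM in siI3 and 1.97, 2.80 and 1.49 FPM in siC, from 2 to 26 reads per library. The siI2 libraries were above all libraries of the other groups, and siI1 and siI3 overlapped siC. No difference from siC passed: the log2 fold changes were -0.59 (95% interval -1.33 to 0.14) in siI1, 0.66 (-0.08 to 1.4) in siI2 and -0.36 (-1.10 to 0.38) in siI3, at limma adjusted p-values of 0.275, 0.268 and 0.499.

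LIF, a cytokine of the IL-6 family, was well measured and showed no difference from siC that passed. It had 44.4, 35.3 and 41.5 FPM in siI1, 57.9, 43.2 and 50.9 FPM in siI2, 51.2, 56.7 and 40.0 FPM in siI3 and 41.2, 55.5 and 38.2 FPM in siC. All 4 groups overlapped. The log2 fold changes were -0.14 (95% interval -0.57 to 0.30) in siI1, 0.18 (-0.26 to 0.61) in siI2 and 0.13 (-0.30 to 0.57) in siI3, and the limma adjusted p-values lay between 0.634 and 0.695. After the GC correction the values were -0.43, -0.02 and -0.10 in siI1, siI2 and siI3 (limma adjusted p = 0.0671, 0.95 and 0.673). The siI1 estimate for LIF thus moved with that correction and still did not pass.

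IL6 and CCL2 were at or near the limit of detection and were not tested. IL6, the founding member of its cytokine family, had 8, 4 and 8 reads in siI1, 1, 2 and 0 in siI2, 0, 0 and 2 in siI3 and 0, 5 and 2 in siC. Each siI1 library had a higher FPM than any siC library (0.640 to 1.37 FPM against 0 to 0.539 FPM), although siI1 replicate 2 had fewer reads than siC replicate 2. CCL2, the chemokine MCP-1, had 1 read in siI1, 0 in siI2, 0 in siI3 and 1 in siC over 3 libraries each. At 3 reads per library, the limit that a count of 0 allows was 0.32 to 0.73 FPM, and this covers counting error only.

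Neither feedback inhibitor passed against siC in any knockdown. NFKBIA, which holds NF-kB in the cytoplasm, had 29.7, 28.9 and 28.5 FPM in siI1, 34.9, 29.6 and 28.6 FPM in siI2, 31.6, 32.6 and 32.6 FPM in siI3 and 20.2, 32.0 and 28.3 FPM in siC. All knockdown groups overlapped siC, and the widest spread was among the siC libraries. The log2 fold changes were 0.14 (95% interval -0.28 to 0.55), 0.22 (-0.19 to 0.64) and 0.28 (-0.14 to 0.70) in siI1, siI2 and siI3, and the limma adjusted p-values lay between 0.344 and 0.687.

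TNFAIP3, the A20 enzyme that ends signalling upstream of NF-kB, was lowest in siI1. Its level was 2.80, 2.40 and 1.71 FPM in siI1, 3.41, 3.86 and 2.91 FPM in siI2, 4.91, 4.70 and 5.14 FPM in siI3 and 3.94, 3.99 and 5.14 FPM in siC, from 10 to 38 reads per library. The siI1 and siI2 libraries were below all siC libraries, and the siI3 libraries overlapped siC. None of the differences from siC passed, with log2 fold changes of -0.71 in siI1 (95% interval -1.26 to -0.15, limma adjusted p = 0.0997), -0.29 in siI2 (-0.84 to 0.27, limma adjusted p = 0.539) and 0.15 in siI3 (-0.41 to 0.71, limma adjusted p = 0.727).

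The knockdowns were also compared with each other, which leaves out the siC libraries from the contrast. In siI1 against siI3, 3 of 8 members passed, all lower in siI1, where 7.05% of all genes passed in either direction (971 genes, and 546 to 619 without any single siI1 replicate or siI3 replicates 1 or 2). CXCL3 differed most (log2 fold change -2.22, SE 0.27, limma adjusted p = 6.55e-05), followed by CXCL1 (-1.34, SE 0.20, limma adjusted p = 0.000438) and CXCL2 (-0.99, SE 0.27, limma adjusted p = 0.0338). The CXCL3 and CXCL1 calls held in all 12 fits that left out 1 library. The CXCL2 call was lost without any single replicate of siI1 or siI3 (-1.10 to -0.87, adjusted p-values of 0.0535 to 0.154). TNFAIP3 was lower in all siI1 libraries than in all siI3 libraries but missed the threshold (-0.86, SE 0.26, limma adjusted p = 0.0625). It passed after the GC correction (-0.97, adjusted p = 0.0151) and without siI2 replicate 3 (adjusted p = 0.0487). CXCL8 differed by -1.65 (SE 0.52, limma adjusted p = 0.0676) and passed with edgeR (-2.30, adjusted p = 0.0296). It also passed without siI2 replicate 2 or 3 or siI3 replicate 1 or 2, at -2.06 to -1.65 and adjusted p-values of 0.0447 to 0.0475, whereas without siI3 replicate 3 it was -0.82 (adjusted p = 0.17).

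In siI1 against siI2, 2 of 8 members passed, where 2.4% of all genes passed in either direction (331 genes, and 127 to 207 without any single siI1 replicate or siI2 replicate 1). CXCL1 was lower in siI1 (log2 fold change -0.97, SE 0.20, limma adjusted p = 0.0152), as was CXCL3 (-1.22, SE 0.27, limma adjusted p = 0.0221). Same-numbered libraries of these 2 groups deviated together, but the block on replicate number was fitted over all 12 libraries. It is therefore not a pairing of these 2 groups alone. With that block, CXCL1 still passed (limma adjusted p = 0.027) and CXCL3 did not (limma adjusted p = 0.0507). The CXCL1 call was lost without any single siI1 replicate or siI2 replicate 1 or 2 (-1.03 to -0.90, adjusted p-values of 0.0525 to 0.0784). The CXCL3 call was lost without any single siI1 replicate or siI2 replicate 1 or 3 (-1.31 to -1.13, adjusted p-values of 0.0607 to 0.109). CXCL8 differed by -1.27 (SE 0.52, limma adjusted p = 0.261; 0.04 without siI3 replicate 3) and IL1B by -1.25 (SE 0.35, limma adjusted p = 0.0734; 0.049 without siI1 replicate 3).

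In siI2 against siI3, 0 of 8 members passed with limma and 0 with edgeR, while DESeq2 called 1, CXCL3, and 2 had an unadjusted p below 0.05, where 2% of all genes passed with limma (276 genes, and 112 to 180 without siI1 replicate 3, siI2 replicates 1 or 2 or siI3 replicates 1 or 2). CXCL3 was lower in siI2 (-0.99, SE 0.27, limma adjusted p = 0.0768; 0.0387 after the GC correction), and IL1B was higher in siI2 (1.02, SE 0.35, limma adjusted p = 0.171). For CXCL8 the difference was -0.38 (95% interval -1.47 to 0.72) and for CXCL1 -0.37 (-0.79 to 0.06), so these data do not show whether siI2 and siI3 differ in either.

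Ratios between members within a library do not depend on how libraries are scaled, and 4 of them were examined after the values were seen. They can still depend on GC content, which is 33.4% in CXCL8, 45.6% in CXCL1 and 53.1% in NFKBIA transcripts. Replicate 2 of siC, with a GC slope within the range of the knockdown libraries, had the lowest siC ratio of CXCL8 to CXCL1 and to NFKBIA. The ratios were not corrected for GC content, and its part in them was not tested. The CXCL8 to CXCL1 ratio of reads was 0.424, 0.572 and 0.3 in siI1, 0.564, 0.846 and 0.306 in siI2, 0.329, 0.222 and 2.05 in siI3 and 4.07, 3.14 and 4.79 in siC. CXCL8 thus had more reads than CXCL1 in every siC library and in siI3 replicate 3, and fewer in the other 8 knockdown libraries. On the log2 scale the knockdown mean minus the siC mean was -3.24 in siI1, -2.90 in siI2 and -2.89 in siI3, with no overlap with siC in any of them (exact permutation test, two-sided, p = 0.1 for each, the smallest p that 3 against 3 libraries can give; 0.171 adjusted over 12 tests). The CXCL3 to CXCL1 ratio averaged -4.65 in siI1, -3.87 in siI2, -3.09 in siI3 and -3.14 in siC (log2), and siI1 and siI2 lay below siC without overlap (exact p = 0.1 each). The CXCL2 to CXCL1 ratio averaged -3.0, -3.23 and -3.21 in siI1, siI2 and siI3 and -3.14 in siC, with overlap in every comparison (exact p = 0.5 to 0.8). The CXCL8 to NFKBIA ratio was lower than in siC, with log2 differences of -3.51 in siI1 and -2.27 in siI2 without overlap (exact p = 0.1 each), and of -1.95 in siI3 with overlap (exact p = 0.2).

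**Figure D3:**
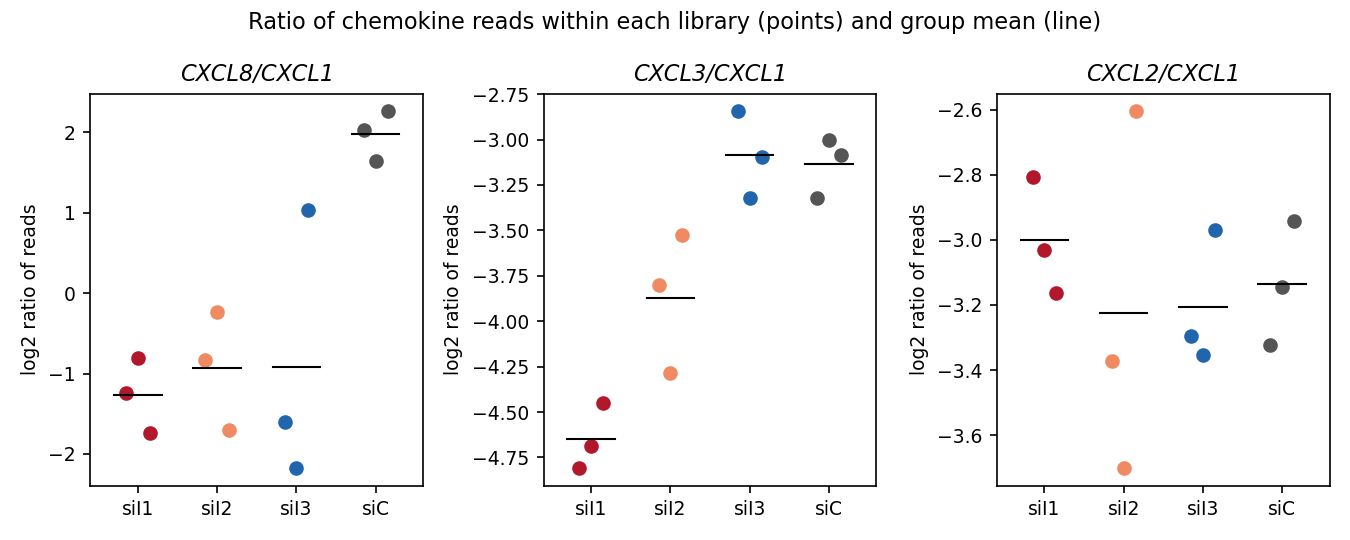
Log2 ratio of reads between chemokines in each library (points, each panel on its own scale) with group means (lines), with siI1, siI2, siI3 and siC from left to right. The ratios are not corrected for GC content. The CXCL8 to CXCL1 ratio is 1.65 to 2.26 in siC and below that in all 9 knockdown libraries, of which siI3 replicate 3 is highest at 1.03; the CXCL2 to CXCL1 ratio overlaps between groups.

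Across the 12 libraries, which share the 4 groups and their depths, CXCL1, CXCL2 and CXCL3 varied together and CXCL8 apart from them. Pearson's r of log2(FPM + 1) was 0.88 between CXCL1 and CXCL2, 0.83 between CXCL1 and CXCL3 and 0.79 between CXCL2 and CXCL3. It was -0.02, -0.12 and 0.34 between CXCL8 and CXCL1, CXCL2 and CXCL3. TNFAIP3 had an r of 0.71 with CXCL8, 0.78 with CXCL3, 0.5 with CXCL1 and 0.44 with CXCL2, so it varied with CXCL3 at least as closely as with CXCL8. CXCL1 to CXCL3 also share the windows of identical sequence given above, whose part in these correlations was not tested.

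Among 9314 genes that averaged 5 FPM or more, the 5 whose levels over the 12 libraries were most like CXCL8 were SORCS3 (r = 0.95), NCR3LG1 (0.94), GPATCH4 (0.94), the interstitial collagenase MMP1 (0.94) and the long noncoding RNA LINC-PINT (0.93). MMP1 had 333, 388 and 292 FPM in siI1, 727, 819 and 580 FPM in siI2, 891, 558 and 2746 FPM in siI3 and 2086, 1794 and 1364 FPM in siC. As for CXCL8, siI3 replicate 3 stood far above the other siI3 libraries for MMP1, and its value exceeded every siC library. In the other 4 genes siI3 replicate 3 was also the highest of its group, for example 25.9 FPM against 15.3 and 12.3 FPM for SORCS3. Because the 5 genes were chosen for their likeness to CXCL8 over these same libraries, a low siI1 and a high siI3 replicate 3 go with the choice and are no support for the CXCL8 pattern.

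**Figure D4:**
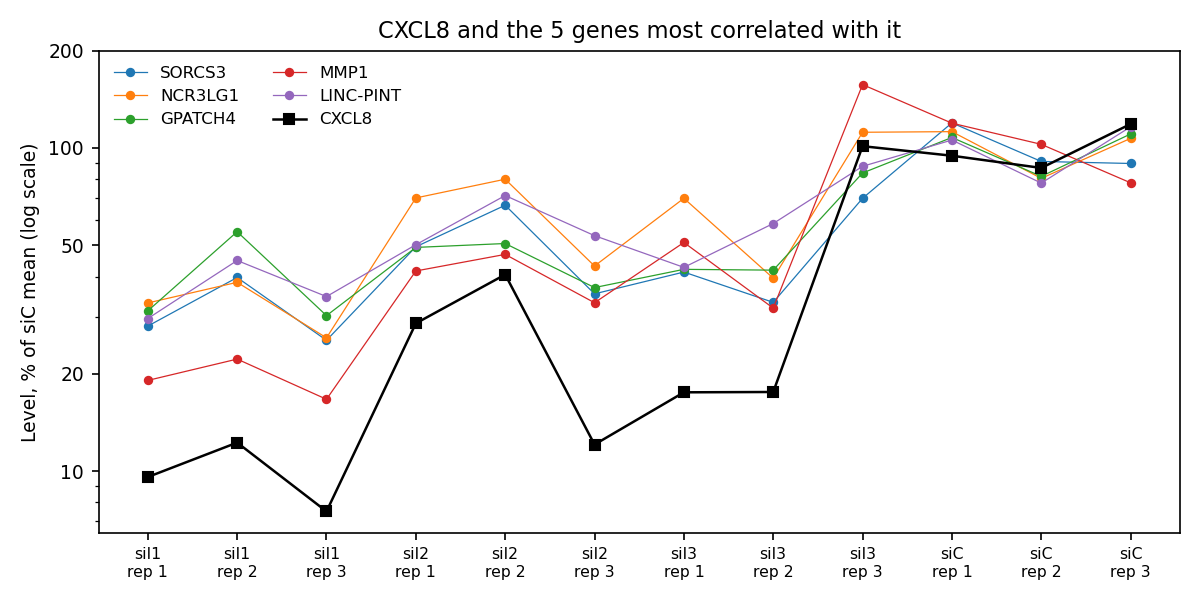
Level of CXCL8 (black squares) and of the 5 genes most correlated with it, as a percentage of each gene's siC mean on a log axis, in the 12 libraries with siC at the right. All 6 genes are lower in siI1 than in siC, and siI3 replicate 3 lies above siI3 replicates 1 and 2 for every one of them; the 5 genes were chosen by their correlation with CXCL8 over these same libraries.

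Other genes of the same pathway were described by lists chosen with earlier results of these data known. Their counts are to be read against all tested genes, of which 4.42% were lower and 3.77% higher in siI1, 0.936% lower and 0.573% higher in siI2, and 8.29% lower and 2.3% higher in siI3. Of 14 further chemokines, 3 passed the filter on low values. CXCL5, another CXCR2 ligand, fell in siI1 (15.0 ± 2.78 FPM in siI1 and 56.2 ± 10.2 in siC, SD, n = 3; log2 fold change -1.84, limma adjusted p = 0.000496), while 0 of the 3 passed in siI2 or siI3 with limma or edgeR (0 and 1 at an unadjusted p below 0.05). CXCL10, a chemokine driven by interferon, had 0 reads in all 12 libraries. Of 21 further cytokines 6 were tested: IL24, a cytokine of the IL-10 family, fell in siI1 (-1.50, limma adjusted p = 0.00911) and siI2 (-1.64, limma adjusted p = 0.016), and IL11, an IL-6 family cytokine, rose in siI3 (1.30, limma adjusted p = 0.0246).

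Among 17 tested receptors and adaptors, 1 fell in siI1, 1 in siI2 and 3 in siI3, and 1 rose in siI3, where 4.42%, 0.936% and 8.29% of all genes were lower and 2.3% were higher in siI3. The LIF receptor LIFR fell in siI2 (log2 fold change -1.55, limma adjusted p = 0.0451) and siI3 (-1.84, limma adjusted p = 0.0097), and the IL-6 receptor IL6R rose in siI3 (1.16, limma adjusted p = 0.0264). The kinase MAP3K7 (TAK1) fell in siI1 (-1.03, limma adjusted p = 0.0466; 0.259 after the GC correction), and the TAK1 adaptor TAB2 and the kinase RIPK1 fell in siI3 (-1.75 and -0.78, limma adjusted p = 0.0251 and 0.0457; 0.0576 and 0.0637 after the GC correction). The LIFR call in siI2 also ended after the GC correction (adjusted p = 0.114). Of 11 NF-kB subunits and kinases only MAP3K14 (NIK), the kinase of the non-canonical branch, passed: it rose in siI1 (72.0 ± 5.87 FPM in siI1, 18.7 ± 4.03 in siC; 1.90, limma adjusted p = 6.66e-05) and siI2 (0.97, limma adjusted p = 0.0308), and in siI3 0 passed with limma or edgeR, with 4 at an unadjusted p below 0.05.

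Of 18 other feedback inhibitors and co-regulators of NF-kB, 0 passed with limma in siI1 and siI2 (5 and 4 at an unadjusted p below 0.05; edgeR called 2 and 0). In siI3 the deubiquitinase CYLD and the A20 partner TAX1BP1 fell (-1.39 and -1.77, limma adjusted p = 0.0243 and 0.0364) and TNIP2, another A20-binding protein, rose (0.86, limma adjusted p = 0.0431). None of these 3 calls remained after the GC correction (adjusted p = 0.0532, 0.063 and 0.13). Of 15 other NF-kB targets tested and reported here, 3 fell in siI1, 3 fell in siI2, and 3 fell and 1 rose in siI3, beside the same 4.42%, 0.936% and 8.29% lower and 2.3% higher over all genes. The protease inhibitor SERPINB2 fell in siI1 (43.6 ± 3.32 FPM in siI1 and 395 ± 61.8 in siC; -3.14, limma adjusted p = 1.05e-07) and siI2 (-1.35, limma adjusted p = 0.00248). In siI1 MMP1 and MMP3 fell (-2.36 and -1.30, limma adjusted p = 0.00234 and 0.0442), in siI2 MMP3 and the pentraxin PTX3 (-2.54 and -1.14, limma adjusted p = 0.00428 and 0.0116). In siI3 the urokinase gene PLAU, PTX3 and the adhesion molecule VCAM1 fell (-1.74, -1.50 and -2.65, limma adjusted p = 0.000275, 0.00108 and 0.00347), and tenascin C (TNC) rose (1.30, limma adjusted p = 0.00125). The MMP3 call in siI1 ended after the GC correction (adjusted p = 0.0895).

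For the signalling downstream of IL6 and LIF, 3 of 11 tested genes rose in siI1, 0 passed in siI2 with limma or edgeR (2 at an unadjusted p below 0.05), and 1 rose and 1 fell in siI3. In siI1 these were SOCS3, a feedback inhibitor of STAT3 signalling, the kinase PIM1 and STAT3 itself (1.33, 1.06 and 0.82, limma adjusted p = 0.00316, 0.00687 and 0.0185). In siI3 SOCS3 rose (0.92, limma adjusted p = 0.0265) and the kinase JAK1 fell (-1.34, limma adjusted p = 0.00105). Of 13 transcription factors that act beside NF-kB at such promoters, CEBPD and IRF1 rose and CEBPG fell in siI1 (1.88, 1.17 and -1.49, limma adjusted p = 0.00265, 0.00809 and 0.00568), and the immediate early genes FOS, FOSB and EGR1 rose in siI3 (1.70, 1.53 and 1.26, limma adjusted p = 0.00772, 0.00772 and 0.0171). In siI2 0 of the 13 passed with limma or edgeR, with 4 at an unadjusted p below 0.05. Of 14 factors that bind AU-rich elements or degrade cytokine mRNAs, 0 passed in siI1 or siI2 with limma or edgeR (5 each at an unadjusted p below 0.05), and the deadenylase PARN and the CCR4-NOT scaffold CNOT1 fell in siI3 (-1.15 and -1.55, limma adjusted p = 0.0217 and 0.0251). With edgeR PARN passed (adjusted p = 0.0226) and CNOT1 did not (adjusted p = 0.0626). Both limma calls held in 8 of the 12 fits that left out 1 library. Over all 9 lists there were 38 calls against siC, to be read beside the shares over all tested genes. Those were 4.42% lower and 3.77% higher in siI1, 0.936% and 0.573% in siI2, and 8.29% and 2.3% in siI3. No test compared the lists with all genes. Of the 38 calls, 30 held after the GC correction, the 8 exceptions being those named above, and 15 held in every fit that left out 1 library. The calls lost were 22 without siC replicate 1, 21 without siC replicate 3, 15 without siI3 replicate 2 and 13 without siI3 replicate 1, and 1 to 9 without siI1 replicates 1, 2 or 3, siI2 replicates 1 or 3 or siI3 replicate 3.

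**Figure D5:**
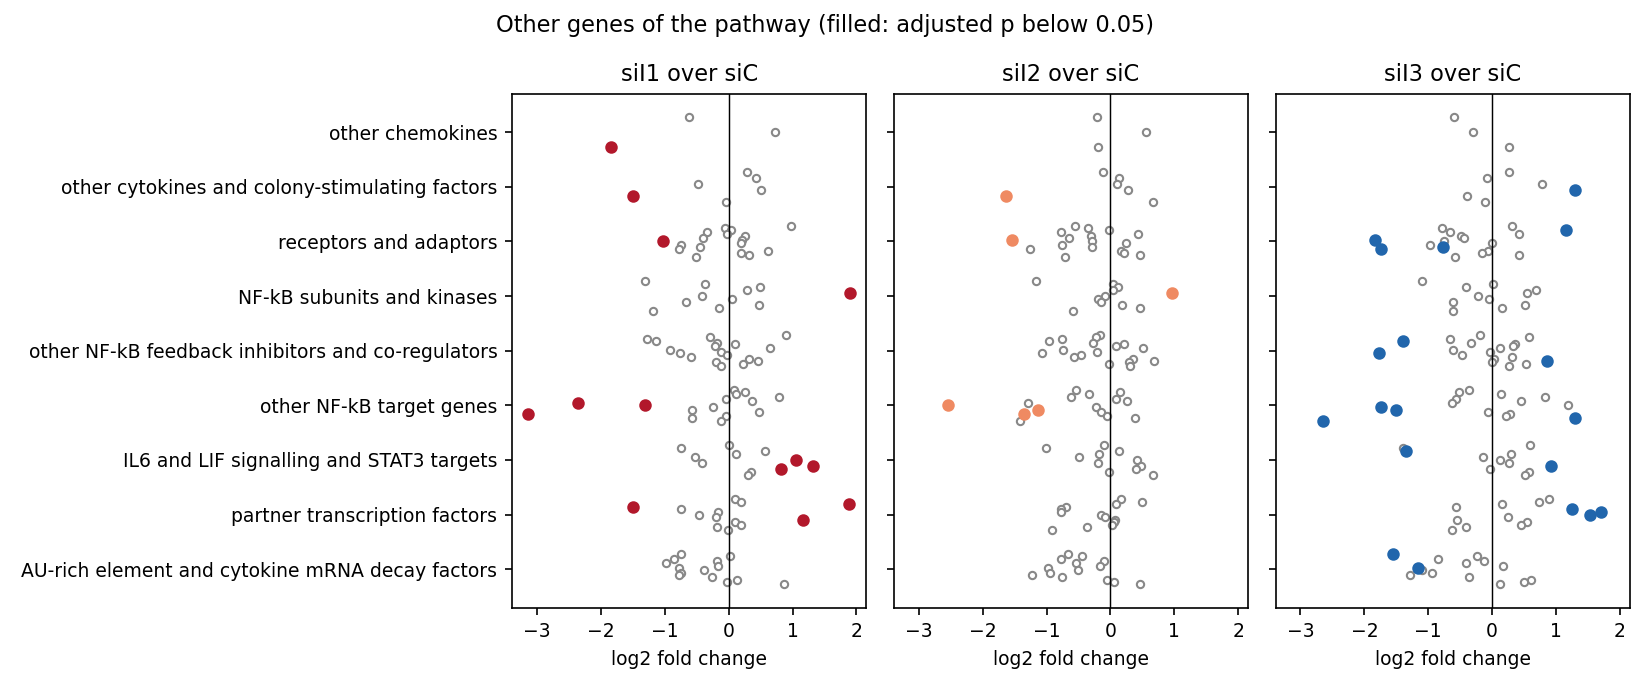
Log2 fold change over siC, on the log2(FPM + 1) scale, of the tested genes in 9 pathway lists for siI1, siI2 and siI3 from left to right; each point is a gene, filled where the limma adjusted p was below 0.05. Most points are open in every panel, and filled points lie on both sides of 0 in each.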

How the data were processed

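Total RNA of ES-2 cells was measured in 12 libraries, 3 per siRNA group, with groups and replicate numbers taken from the sample titles. Per the submitters' processing notes, cutadapt 1.6, TopHat2 2.0.13, the hg19 build, featureCounts 1.4.6 and edgeR 3.12 were used; no source used here states the strand setting or annotation. Values in the authors' table are FPM, a depth-normalized signal, per the file headers, beside the authors' log2 fold changes and FDR values (adjusted p-values). The direction of those fold changes, knockdown over siC, was inferred from the values and not from the headers. In siI1, siI2 and siI3, 98.5%, 97.6% and 98.3% of their signs matched knockdown over siC. Each library's values were multiples of a fixed step (100% within a tolerance of 0.01), so read counts were recovered; replicates differed by more than sampling noise (chi-square divided by its degrees of freedom, 8.03 to 85.8).

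Members were matched by name, and symbols, GC content and lengths came from GENCODE release 29. The members, the pathway lists and the rule for named genes were chosen with earlier results of these data known. The rule named all members, up to 4 called genes per list and knockdown in order of p, and the 5 genes most correlated with CXCL8. Genes passing filterByExpr (minimum count 10; 13782 genes, 8 of 10 members) were tested with limma 3.58.1 (R 4.3.3) on log2(FPM + 1), 2-sided, with a mean-variance trend and 1 coefficient per group over all 12 libraries. Benjamini-Hochberg adjustment ran over all tested genes within each of 6 comparisons, and a gene was called below 0.05. Fold changes on this scale understate the change of low genes. The test was also run on simulated counts. These held no GC slopes and no library-wide deviations, so that check does not cover them. Alternatives were edgeR 4.0.16 and DESeq2 1.42.0 on recovered reads, filters, pseudocounts (0.25 and 4), scaling factors, only the libraries compared, the replicate block, a loess correction for GC content and length (span 0.5, 13361 genes, 96.9%), each library left out, and siC replicate 2 as the only control, added after seeing the data because of its GC slope. Same-numbered siI1 and siI2 libraries deviated together (correlations of 0.19, 0.45 and 0.18), which pairs them by the rule used. In the other comparisons at least 1 correlation was below 0.1. The replicate block was fitted over all 12 libraries and not within pairs of groups. The spike-ins were left out of tests, and some genes of the pathway and marker lists are not reported here.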

Additional observations from a re-analysis of the deposited data

How the results depend on the processing

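Over all alternatives, 1118 log2 fold changes of single members kept their side of the threshold, 60 lost a call, 22 gained a call and 0 calls reversed. The number of members called in siI1 against siC was 2; it was 1 under upper-quartile scaling and 0 with siC replicate 2 as the only control. In siI2 against siC it was 1, and 0 with no filter on low values, with a pseudocount of 0.25, under upper-quartile scaling, with the replicate block and with siC replicate 2 as the only control; with only the 6 libraries compared it was 1 again, but CXCL8 and not CXCL1. In siI3 against siC it was 3, and 4 under upper-quartile scaling, which added CXCL8, 2 with the replicate block, 1 with no filter and 0 with siC replicate 2 as the only control. In siI1 against siI2 it was 2, and 1 with no filter, 0 under upper-quartile scaling, 1 with only the 6 libraries compared and 1 with the replicate block. In siI1 against siI3 it was 3, and 2 with no filter and with the replicate block, which both ended the CXCL2 call; it was 3 under upper-quartile scaling, with CXCL8 in place of CXCL2, and 4 with edgeR and DESeq2, which added CXCL8, and after the GC correction, which added TNFAIP3. In siI2 against siI3 it was 0, and 1 with a pseudocount of 4, with DESeq2 and after the GC correction. In fits that left out 1 library the number ranged over 1 to 2, 0 to 2 and 1 to 4 in siI1, siI2 and siI3 against siC, 0 to 3 in siI1 against siI2, 2 to 5 in siI1 against siI3 (5 without siI2 replicate 3) and 0 to 0 in siI2 against siI3. With siC replicate 2 alone the lone control was assumed to vary like the other groups. The causes of these moves were not tested. The replicate block, where same-numbered libraries did not all deviate together, also ended the call of CXCL2 in siI3 against siC (adjusted p = 0.0553) and in siI1 against siI3 (0.058). It moved the count over all genes to 696, 95 and 745 in siI1, siI2 and siI3 against siC, where 1128, 208 and 1460 were called without it. After the GC correction 430 of 937 calls in siI1, 84 of 193 in siI2 and 548 of 909 in siI3 were lower than siC, where 609, 129 and 1143 were lower without it. Depth limits IL6, CCL2 and IL1B most, at 0 to 26 reads per library.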
